A study of Mus musculus with 8 samples.

Results

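Plasma cell-rich spots were the Visium capture spots of mouse intestine in which antibody transcripts took the largest share of all molecules. A spot of a Visium slide is a small round capture area that can hold several cells of different types, and its transcripts are counted as unique molecular identifiers (UMIs). Spots with at least 500 UMIs were ranked within each section by the share of UMIs from Jchain, Igha and Igkc, and the top 10% of each section were taken. The members were thus chosen by measured antibody transcripts. This gave 893 of 8938 spots, with 209 of 2094 and 257 of 2571 in both sections of small intestine, and 209 of 2094 and 218 of 2179 in both sections of large intestine. The remaining 8045 spots are called the other spots.

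The series studied how lymphatic vessels and epithelial stem cells of the intestine interact and held 8 libraries, of which the 4 Visium sections and 2 single-cell libraries of sorted tissue were used. The sections were 10 µm cryosections of small and large intestine of C57BL/6 mice, 2 per tissue, which the design text calls technical duplicates. Live cells from digested small and large intestine, enriched for Lgr5-positive stem cells and for lymphatic endothelial cells positive for CD31, PDPN and LYVE1, made 1 library per tissue, and both C57BL/6 mice and Lgr5-eGFP-ires-CreERT2 mice on that background were used for sorting. No mouse was treated per the labels, and ages were not given in the sources used here. With technical duplicates there is no spread between animals, so no test was run. Values are given for each section, with 95% intervals that cover counting error only. A gene or list is called higher or lower where its log2 ratio of plasma cell-rich to other spots reached 0.5 in that direction in both sections of a tissue.

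Plasma cells are the antibody-secreting end stage of the B cell lineage. In the intestinal lamina propria, the connective tissue under the epithelium, most of them make dimeric immunoglobulin A (IgA), in which the J chain links antibody units. The epithelial receptor encoded by Pigr carries this IgA into the lumen. Plasma cells depend on a large endoplasmic reticulum (ER), on the transcription factors encoded by Xbp1, Prdm1 and Irf4, and on survival factors from neighbouring stromal and myeloid cells.

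The deposited sections held 24356162 to 43833127 UMIs. Median UMIs per plasma cell-rich spot were 9151 and 13011 in small intestine and 20492 and 20973 in large intestine, against 10283, 8800.5, 19129 and 19641 in the other spots. The mitochondrial share of UMIs was lower in the plasma cell-rich spots of each section, at 4.62%, 4.72%, 4.84% and 4.08% against 5.92%, 6.07%, 5.96% and 5.15%. Sections shared 996 to 1595 spot barcodes, which mark positions on the array, and 7 to 24 of these were plasma cell-rich in both sections of a pair. Depth, mitochondrial share and the presence of muscle differed between the spots compared. With the other spots matched for depth, the list of plasma cell genes kept median log2 ratios of 1.65 and 1.36 in small intestine and 1.25 and 1.30 in large intestine, values with few muscle transcripts are given below, and the part of the mitochondrial share was not tested.

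The rule set how much antibody RNA these spots held, so the following values are descriptions. In small intestine, the median share of rule-gene UMIs was 4.02% and 2.97% in plasma cell-rich spots and 0.480% and 0.359% in other spots. In large intestine it was 9.64% and 9.23%, against 2.18% and 2.12%. The highest single spot of each section reached 21.2%, 25.1%, 27.2% and 23.7%. The boundary was gradual, since the last spot taken and the first left out held 2.45% and 2.44% in small intestine section 1, 1.58% and 1.58% in section 2, 7.28% and 7.24% in large intestine section 1, and 6.84% and 6.83% in section 2. A plasma cell-rich spot of small intestine could therefore hold a smaller share of antibody RNA than many of the other spots of large intestine.

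Antibody RNA was more concentrated in small than in large intestine. The chosen spots held 51.2% and 65.9% of all rule-gene UMIs of the small intestinal sections, and 34.0% and 33.3% of those of the large intestinal sections. All immunoglobulin genes together made up 0.935% and 0.944% of UMIs in small intestine and 3.27% and 3.07% in large intestine. The 10% of spots richest in smooth muscle transcripts still held rule-gene shares of 0.573% and 0.337% in small intestine and 2.80% and 2.68% in large intestine, which gives the level in a layer where plasma cells are not typical. These shares were pooled over spots, among them 7, 7, 4 and 4 plasma cell-rich spots. They are therefore not comparable with the medians over spots given above.

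**Figure D1:**
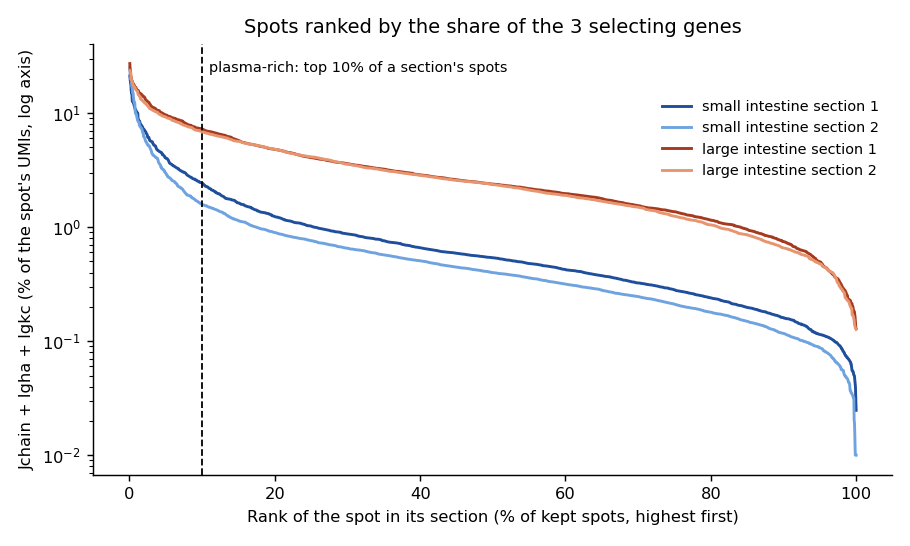
Share of UMIs from Jchain, Igha and Igkc per spot (log axis, percent) against the rank of the spot within its section, for all 4 sections; spots under 0.01% are drawn at 0.01%. The small intestinal curves drop more steeply, and their top 10% ends at 2.45% and 1.58%, against 7.28% and 6.84% in large intestine.

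Levels below are UMIs scaled to a total of 1000000 per group of spots (CPM), after leaving out all genes whose symbols start with Igh, Igk or Igl, so that antibody RNA itself does not dilute the rest. Jchain (chromosome 5, 88519809 to 88527897, GRCm38.p6), the linker of dimeric IgA, had 6092 and 5335 CPM in the plasma cell-rich spots of small intestine and 527 and 346 in the others. Large intestine had 11677 and 10986 CPM against 2423 and 2278. Igha (chromosome 12, 113256204 to 113260236) encodes the IgA heavy chain constant region and had log2 ratios of 3.47 and 3.83 in small intestine and 2.10 and 2.07 in large intestine. Igkc (chromosome 6, 70726435 to 70726754), the kappa light chain constant region, had log2 ratios of 3.34, 3.70, 2.37 and 2.36. These 3 genes defined the spots and are no evidence for their identity.

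Plasma cell genes that the rule did not use were higher in the chosen spots of both tissues. Of 24 listed genes, 20 passed the abundance filter in small intestine (at least 100 UMIs over the kept spots of each section) and 16 of these were higher, where 5.66% of all 10758 genes that passed were higher and 2.12% lower. In large intestine 23 passed and 16 were higher, where 4.86% of 11866 genes were higher and 2.46% lower. No listed gene was lower in both sections of either tissue. Of 19 that passed in all 4 sections, 12 were higher in each, against 2.6% of 10429 genes, and none was lower in each, against 0.71%. Median log2 ratios of the list were 1.68 and 1.27 in small intestine and 1.25 and 1.33 in large intestine, while the median over all genes lay at 0.06, 0.04, 0.01 and 0.01. The genes were measured in the same spots that the antibody genes chose, so they describe these spots rather than test them. In bulk regions such as spots, more plasma cells and more RNA per plasma cell cannot be told apart.

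Mzb1, an ER chaperone needed for antibody assembly in B lineage cells, had 167 UMIs in the plasma cell-rich spots and 226 in the others of small intestine section 1, or 78.3 against 10.3 CPM, and 294 against 198 UMIs in section 2, or 80.6 against 7.57 CPM. The large intestinal sections had 220 against 63.4 CPM and 214 against 61.8 CPM. Its log2 ratios were 2.93 (95% counting interval 2.63 to 3.22), 3.41 (3.15 to 3.68), 1.80 and 1.79. The plasma cell-rich spots of large intestine thus had the highest Mzb1 level of the 4 kinds of spot, while the ratio to other spots was larger in small intestine. For shares of spots with an Mzb1 UMI, plasma cell-rich spots were left out of the muscle-rich 10%. After thinning each spot to 2000 UMIs, 12.4% and 13.1% of plasma cell-rich spots in small intestine had an Mzb1 UMI, against 2.32% and 1.84% of other spots and 1.49% and 0.403% of the muscle-rich 10%. In large intestine the thinned shares were 31.6% and 31.7%, against 9.60% and 11.6% of other spots and 7.88% and 12.4% of the muscle-rich 10%. Without thinning the plasma cell-rich shares were 49.8%, 50.6%, 94.7% and 93.1%, the shares of other spots 10.6%, 7.48%, 55.3% and 56.6%, and those of the muscle-rich 10% 5.94%, 3.20%, 42.4% and 43.5%.

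Among regulators of the plasma cell state, Irf4 had 44.5 and 42.8 CPM against 8.87 and 8.18 in small intestine, and 34.0 and 28.6 CPM against 9.04 and 9.21 in large intestine. Xbp1, which drives expansion of the secretory pathway, had 272 and 250 CPM against 166 and 138 in small intestine, and 471 and 440 CPM against 254 and 245 in large intestine. Its log2 ratios of 0.71, 0.85, 0.89 and 0.85 were alike in the tissues. Prdm1, encoding the plasma cell regulator Blimp-1, had log2 ratios of only 0.34, 0.40, 0.36 and 0.22 and was not called. Pou2af1, a B lineage coactivator, had ratios of 1.76 and 1.87 in large intestine and fell below the filter in small intestine. Ell2, an elongation factor that favours secreted antibody transcripts, had ratios of 0.51, 0.32, 0.48 and 0.49 and was not called.

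Receptors of the B lineage surface were among the largest ratios. Cd79a, a signalling chain of the B cell receptor, had 29.1 and 24.4 CPM against 3.23 and 2.83 in small intestine and 37.5 and 39.4 CPM against 11.1 and 10.2 in large intestine. Tnfrsf17 encodes BCMA, a survival receptor of plasma cells, and had 33.0 and 26.2 CPM against 7.12 and 6.24 in large intestine. In small intestine Tnfrsf17 was below the filter, with 22 and 33 UMIs in the chosen spots and 30 and 22 in the many more other spots. Tnfrsf13b, encoding the related receptor TACI, had log2 ratios of 2.63, 2.21, 2.08 and 1.73. Eaf2 had 2.64, 2.53, 2.16 and 1.89, and Trp53inp1 2.42 and 2.30 in small intestine, with 128 and 128 CPM against 55.8 and 49.4 in large intestine. Slamf7, a surface marker of plasma cells, was higher in large intestine at 1.59 and 1.21.

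Some listed plasma cell genes did not separate the spots. Sdc1, encoding the plasma cell marker CD138 and also made by epithelium, had 120 and 117 CPM against 111 and 108 in small intestine and 182 and 160 CPM against 128 and 129 in large intestine. Cd38 had log2 ratios between -0.20 and -0.05 in the 4 sections. Pim2, a survival kinase, was higher in small intestine (1.48 and 0.85) and inconsistent between the large intestinal sections (0.49 and -0.67), where it rested on 29 and 14 UMIs in the chosen spots.

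**Figure D2:**
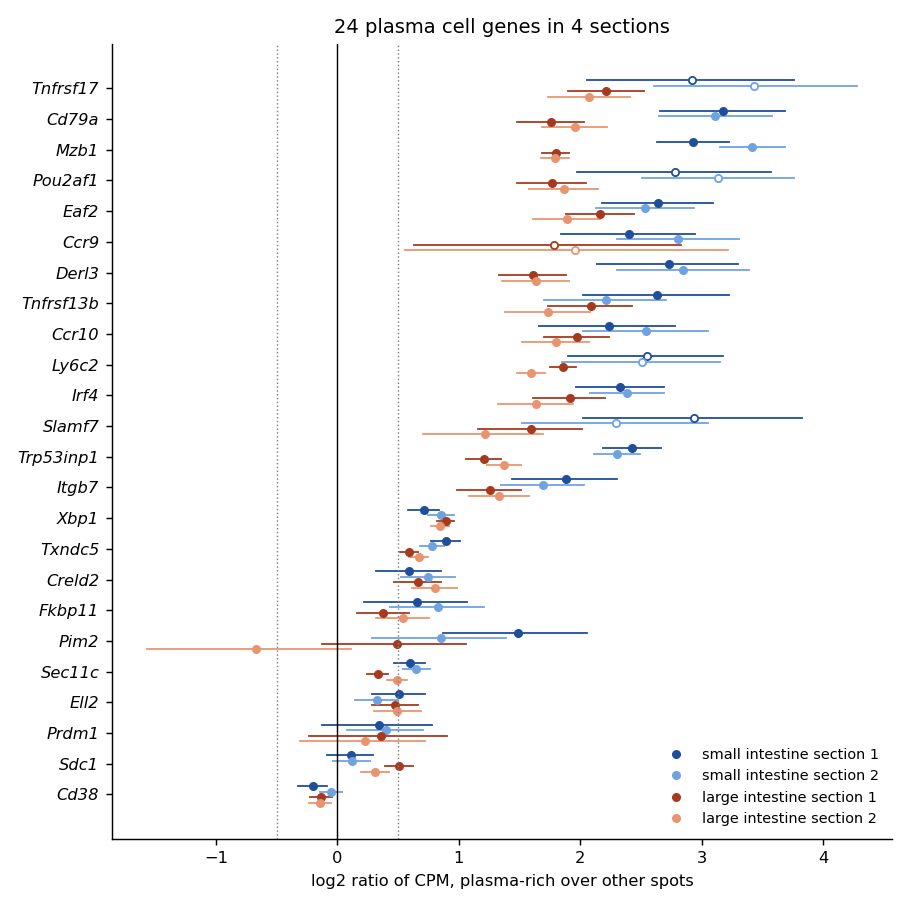
Log2 ratio of plasma cell-rich to other spots for each plasma cell gene, with 1 point per section and bars for the 95% counting interval; open circles mark genes under the abundance filter in that tissue, and dotted lines mark 0.5 in each direction. Mzb1, Cd79a and Derl3 lie far to the right in all 4 sections, while Cd38 lies at or just below 0.

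Genes of the general secretory machinery had small ratios. Of 35 ER and secretory genes, all of which passed the filter, 3 were higher in small intestine, where 5.66% of all genes were, and 4 in large intestine, where 4.86% of all genes were, and none was lower. Median log2 ratios were 0.22 and 0.27 in small intestine, where the upper quartile of all genes lay at 0.29 and 0.22, and 0.25 and 0.24 in large intestine, where it lay at 0.17 and 0.18. Edem2, which acts in the disposal of misfolded glycoproteins, was higher in both tissues (0.88, 0.83, 0.76 and 0.75), as was the oxidoreductase gene Ero1lb (0.68, 0.88, 1.06 and 1.05). Herpud1, an ER-associated degradation gene, was higher in small intestine (0.69 and 0.55) and had 0.24 and 0.24 in large intestine, a difference that was not tested. Edem1 (0.75 and 0.83) and the chaperone gene Hsp90b1 (0.52 and 0.54) were higher in large intestine, with 0.53 and 0.46 and with 0.35 and 0.46 in small intestine. Hspa5, the main ER chaperone gene BiP, had 540 and 487 CPM against 458 and 428 in small intestine, and 401 and 394 CPM against 341 and 332 in large intestine. The protein disulfide isomerase gene P4hb had ratios between -0.13 and 0.00.

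Derl3, a plasma cell gene of ER-associated degradation, joined large ratios with a secretory role. It had 43 and 59 UMIs in the plasma cell-rich spots of small intestine, or 20.2 and 16.2 CPM against 3.05 and 2.26, and 147 UMIs in those of each large intestinal section, or 37.0 and 35.4 CPM against 12.1 and 11.4. Its log2 ratios were 2.73, 2.84, 1.61 and 1.64. The list gene Creld2, another ER stress gene, had 0.59, 0.75, 0.66 and 0.80. Both carry in their promoter windows (250 bases before to 50 after the start site, RefSeq, GRCm38.p6) the ER stress response element, CCAAT followed after 9 bases by CCACG, a motif through which ATF6 and XBP1 act. Searched on both strands, it was found in 37 of 27025 genes with a promoter window (0.137%), in 2 of 20 plasma cell genes with one (10%) and in 7 of 26 ER genes (26.9%). The 7 were Hspa5, Hsp90b1, Pdia6, Calr, Canx, Dnajc3 and Syvn1, of which only Hsp90b1 was called higher, in large intestine. The octamer ATGCAAAT, known from immunoglobulin promoters, was in 532 of the 27025 genes (1.97%) and in 1 of the 20 plasma cell genes, Pim2. The stretches around the element are shown for both plasma cell genes and for 2 of the ER genes that carry it, Hspa5, which was not called, and Hsp90b1, which was called only in large intestine, with the match in capitals, read 5′ to 3′ on the gene's strand. Derl3 lies at chr10:75893202-75893300 (plus strand), Creld2 at chr15:88819480-88819578 (plus), Hspa5 at chr2:34771985-34772083 (plus) and Hsp90b1 at chr10:86705493-86705694 (minus, 2 matches), all upstream of the start site. A match is a description of the letters and not a binding site.
Derl3: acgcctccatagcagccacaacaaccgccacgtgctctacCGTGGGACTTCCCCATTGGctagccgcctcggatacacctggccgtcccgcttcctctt
Creld2: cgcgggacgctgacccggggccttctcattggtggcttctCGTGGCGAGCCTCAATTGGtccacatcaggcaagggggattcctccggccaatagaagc
Hspa5: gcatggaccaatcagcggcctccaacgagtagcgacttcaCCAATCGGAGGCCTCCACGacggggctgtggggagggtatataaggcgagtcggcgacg
Hsp90b1: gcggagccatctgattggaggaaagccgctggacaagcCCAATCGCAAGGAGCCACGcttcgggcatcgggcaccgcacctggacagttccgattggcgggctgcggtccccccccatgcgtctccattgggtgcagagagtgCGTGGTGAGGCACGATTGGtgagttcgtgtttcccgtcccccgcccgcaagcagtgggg
In Derl3 and Creld2 the element reads on the opposite strand, and its first base lies at positions -156 and -126 from the start site. In Hspa5 it reads forward at -65. Elements of this kind were thus found both beside genes that were called higher and beside genes that were not.

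Of the homing receptor genes Ccr9, Ccr10 and Itgb7, Ccr9 differed most between the tissues relative to antibody RNA. Ccr9, the receptor for the small intestinal chemokine CCL25, had 44 and 68 UMIs in the plasma cell-rich spots of small intestine, or 20.6 and 18.6 CPM against 3.91 and 2.68. In large intestine it was below the filter, with only 11 and 8 UMIs, or 2.77 and 1.92 CPM against 0.807 and 0.496 in the other spots. Ccr10, the receptor for CCL28, had 19.2 and 16.5 CPM against 4.09 and 2.83 in small intestine and 41.6 and 36.6 CPM against 10.6 and 10.5 in large intestine. Itgb7, a chain of the gut-homing integrin, had log2 ratios of 1.88, 1.69, 1.25 and 1.33.

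Per 1000 UMIs of the rule genes, which adjusts for the amount of antibody RNA, plasma cell-rich spots had 0.345 and 0.336 Ccr9 UMIs in small intestine and 0.0231 and 0.0172 in large intestine. The log2 difference between tissues was 4.10, and the 4 pairs of sections gave 3.86 to 4.33. Ccr10 gave a difference of -0.12 on the same scale, with pairs from -0.22 to -0.02. Ly6c2 went the other way, with 0.267 and 0.188 UMIs per 1000 in small intestine and 2.03 and 1.76 in large intestine, a log2 difference of -3.08 with pairs from -3.44 to -2.72. Ly6c2 shares much of its sequence with Ly6c1, so its level is uncertain. These are differences between 2 tissues with technical duplicates and were not tested.

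The matching chemokines and survival factors were not clearly richer in the same spots. Ccl25 had 323 and 457 CPM in the plasma cell-rich spots of small intestine against 372 and 419, so the sections differed in direction, and 3.78 and 3.85 CPM against 4.06 and 3.47 in large intestine. Ccl28 had 88.7 and 85.2 CPM against 97.6 and 93.9 in large intestine. The survival factor genes Tnfsf13 (APRIL) and Tnfsf13b (BAFF) had log2 ratios from -0.06 to 0.48. Of 21 listed genes of IgA transport, homing and survival, 10 passed the filter in small intestine and 3 were higher (5.66% of all genes), and 9 passed in large intestine and 2 were higher (4.86% of all genes). Cxcl12, a chemokine that retains plasma cells in their niches, was higher in both tissues, with 74.5 and 53.2 CPM against 28.4 and 27.6, and 129 and 121 CPM against 59.8 and 60.5. Vcam1, an adhesion molecule of stromal cells, was also higher in both (0.99, 1.31, 0.52 and 0.82). The third in small intestine was the alarmin gene Il33 (1.39 and 0.59), whose mean ratio turned to -0.32 when only spots poor in muscle transcripts were compared. In large intestine 1 gene of this list instead of 2 was higher with the other spots matched for depth, and likewise 1 among spots poor in muscle transcripts.

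Pigr, the epithelial IgA transporter, had 2471 and 2753 CPM against 1751 and 1865 in small intestine. Its ratios there were 0.497 and 0.56, so the first missed the size used for calling by little. The large intestinal values were 2705 and 2482 CPM against 2558 and 2392, at ratios of 0.08 and 0.05.

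Nearly all heavy chain RNA of the chosen spots was IgA, as the rule favours. Igha made up 99.8% and 99.7% of heavy chain constant UMIs in small intestine and 98.2% and 98.4% in large intestine. IgG genes made up 0.108% and 0.185% in small intestine and 1.68% and 1.52% in large intestine, and IgM 0.0583%, 0.0717%, 0.121% and 0.0738%. In the other spots IgG shares were 0.271%, 0.359%, 3.14% and 2.71%. Because Igha and Igkc chose the spots, the rule favours lower IgG and lambda shares in them, and nothing is read from these shares. The lambda share was nevertheless not lower in small intestine section 2, at 4.54% against 4.34% in the other spots.

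IgG RNA was uneven over spots. The spot with the most IgG held 32.5% and 26.7% of the 80 and 217 IgG UMIs of the plasma cell-rich spots in small intestine, and 16.8% and 13.1% of 3956 and 3565 in large intestine. Ighg1, Ighg2b and Ighg2c had 15.0% to 48.1% of their UMIs in 1 spot in large intestine, the highest being Ighg1 of section 1 with 270 of 561 UMIs. In that section the median spot had an IgG share of 0.328% while the highest had 59.6%. IgG exceeded 10% of heavy chain UMIs in 8 of 209 and 10 of 218 spots of large intestine, and in 1 of 209 spots of small intestine section 1. The highest spot of small intestine section 2 had 4.38%. Light chain shares varied over spots as well. Lambda genes held 2.67% and 4.54% of light chain UMIs in small intestine and 7.22% and 7.46% in large intestine, yet the median spot had 1.18%, 1.04%, 3.04% and 3.08%. Single spots reached 41.9%, 70.8%, 49.8% and 59.1%, and 5, 14, 22 and 21 spots exceeded 20%.

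Variable segments were sparsely counted. Igkv10-96 led the kappa segments in the plasma cell-rich spots of large intestine, with 82 of 428 UMIs (19.2%, exact interval 15.5% to 23.2%) and 62 of 579 (10.7%, 8.31% to 13.5%), and had 13.6% and 11.7% in the other spots. Ighv1-76 led the heavy chain segments with 20 of 189 and 25 of 232 UMIs. Iglv1 held 85.1% and 90.1% of lambda segment UMIs. Segments of a family, and the lambda constant genes, share sequence, so shares of single segments are uncertain.

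Among genes of B cells other than plasma cells, the B cell markers Ms4a1 and Pax5 had too few UMIs to compare the chosen with the other spots. A few other listed genes were higher. Ms4a1 (CD20) had 2, 2, 1 and 5 UMIs in the plasma cell-rich spots of the 4 sections and 2, 4, 33 and 24 in the many more other spots. Pax5 had 0, 0, 0 and 2 UMIs, and 3, 3, 2 and 5 in the other spots. Of 15 listed B cell genes only Cd79b passed the filter in small intestine (2.62 and 2.79), and 5 passed in large intestine, with medians of 1.19 and 1.42, of which Cd79b, Fcrla, Cd37 and H2-Ob were higher. Of all genes 5.66% and 4.86% were higher in small and large intestine, and most listed B cell genes had too few UMIs to be counted. In the sorted large intestine, antibody-rich cells held these 4 transcripts at higher levels than the other cells, with 423 against 6.84 CPM for Cd79b, 45.7 against 1.08 for Fcrla, 75.5 against 6.37 for Cd37 and 31.7 against 2.15 for H2-Ob. Ms4a1 had 1.67 CPM in antibody-rich cells against 3.79 there. B cells and antibody-rich cells as sources of these transcripts in spots cannot be told apart from the 4 genes.

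Macrophage markers were higher in the plasma cell-rich spots than elsewhere. All 10 of the 10 macrophage genes that passed in small intestine were higher, with medians of 1.66 and 1.48, and all 12 in large intestine, with medians of 1.04 and 0.93, where 5.66% and 4.86% of all genes were higher. The complement gene C1qa had 204 and 179 CPM against 62.7 and 65.0 in small intestine and 186 and 226 CPM against 99.6 and 118 in large intestine. Csf1r, the macrophage growth factor receptor, had log2 ratios of 2.15, 2.47, 0.97 and 0.72. Lyz2 had 765 and 673 CPM against 347 and 339 in large intestine. Of the plasma cell-rich spots, 62.7%, 59.5%, 65.1% and 60.6% were in the top 25% of spots for the summed macrophage markers. The dendritic cell genes Itgax (1.76, 2.40, 1.04 and 0.76) and Batf3 (2.07, 1.22, 1.12 and 0.91), the 2 of 8 that passed, were higher as well, against the same shares of all genes.

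T and NK cell markers followed in small intestine. All 10 that passed there were higher, with medians of 1.09 and 1.68, and 6 of 12 in large intestine, with medians of 0.77 and 0.64, against 5.66% and 4.86% of all genes. Of the 12 in large intestine, 4 were higher with the other spots matched for depth and 5 among spots poor in muscle transcripts. Gzma, a granzyme of cytotoxic lymphocytes, had 155 and 203 CPM against 76.1 and 65.4 in small intestine, and 19.1 and 17.1 CPM against 10.9 and 11.5 in large intestine. Cd3e, a chain of the T cell receptor complex, had 14.5 and 18.6 CPM against 5.59 and 5.96 in small intestine. The share of plasma cell-rich spots in the top 25% for these markers was 43.5% and 50.2% in small intestine and 39.2% and 38.1% in large intestine. Hemoglobin genes, which mark blood, went opposite ways in both large intestinal sections, with list medians of -1.25 and 0.99. In the second, 398 of the 674 Hbb-bs UMIs of the plasma cell-rich spots came from 1 spot, against 21 of 116 in the first. Of 10 listed genes of mast cells, eosinophils and neutrophils, 3 passed in large intestine and all 3 were lower, where 2.46% of all genes were lower, with medians of -0.88 and -0.76. They were Kit (11.3 and 11.1 CPM against 20.8 and 17.6), which is also expressed by pacemaker cells of the muscle layer, and the neutrophil genes S100a8 (10 and 7 UMIs in the chosen spots) and S100a9 (9 and 6 UMIs, ratios of -0.64 and -0.76). The mean S100a9 ratio was above 0 when the top 20% of spots were taken (0.54), when spots were ranked by Jchain alone (0.29) and among spots poor in muscle transcripts (0.03). No gene of the 4 that passed in small intestine was called. Of 7 MHC class II genes only H2-Eb1 was higher (0.61, 0.56, 0.60 and 0.57). No gene of that list was higher in large intestine with the other spots matched for depth, or in small intestine among spots poor in muscle transcripts.

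Part of the listed stromal and blood vessel genes and all lymphatic genes that passed were higher, where 5.66% and 4.86% of all genes were higher in small and large intestine. Adamdec1, made by lamina propria fibroblasts, had 678 and 545 CPM against 199 and 133 in small intestine and 265 and 232 CPM against 108 and 104 in large intestine. It was among 6 of 11 fibroblast genes higher in small intestine and 6 of 12 in large intestine. With the other spots matched for depth, 7 of the 11 and 4 of the 12 were higher. Plvap, which marks fenestrated capillaries, had 155 and 142 CPM against 51.6 and 50.1 in small intestine, where 8 of 10 blood endothelial genes were higher, and 56.2 and 53.9 CPM against 39.9 and 43.0 in large intestine, where 4 of 10 were and the list medians were only 0.51 and 0.38. With the other spots matched for depth 1 of these 10 was higher in large intestine. Among spots poor in muscle transcripts 2 were higher and 2 lower there, where 6.18% of all genes were higher and 3.48% lower. Of 6 lymphatic endothelial genes, 5 passed in each tissue and all 5 were higher. Mmrn1 had 24.4 and 24.1 CPM against 11.4 and 12.6 in small intestine and 38.5 and 27.7 CPM against 14.2 and 12.5 in large intestine, and Ccl21a had ratios of 1.15, 0.94, 0.98 and 1.12. Cells of these types share the lamina propria with plasma cells, and the part of this shared layer in the ratios was not tested.

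**Figure D3:**
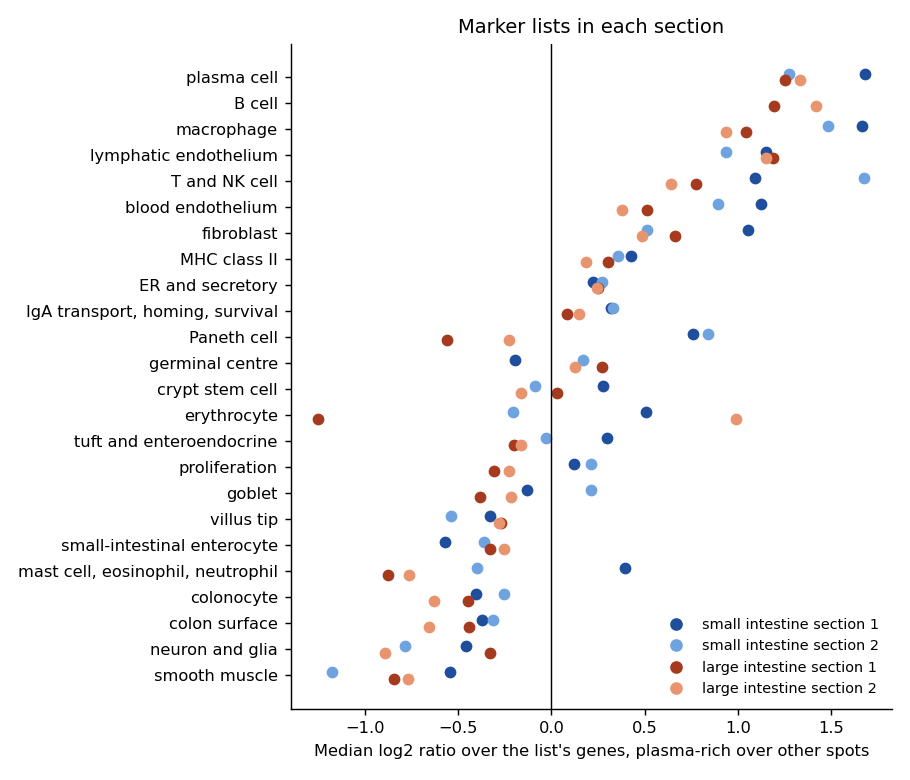
Median log2 ratio of plasma cell-rich to other spots for each marker list with at least 3 genes that passed, 1 point per section, in small and large intestine. Plasma cell, macrophage and lymphatic lists lie above 0.5 in every section, and the smooth muscle list lies below -0.5 in every section.

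Smooth muscle was lower in the chosen spots. In small intestine 5 of 8 smooth muscle genes were lower, with medians of -0.54 and -1.18, and in large intestine 7 of 8, with medians of -0.84 and -0.77, against 2.12% and 2.46% of all genes. Actg2, a contractile actin, had 1834 and 1707 CPM against 2900 and 4021 in small intestine and 288 and 266 CPM against 540 and 540 in large intestine. Muscle-rich regions were not fully left out, since 7, 7, 4 and 4 plasma cell-rich spots lay in the muscle-rich 10%. Of 10 listed neuronal and glial genes, 7 passed in each tissue and 2 were lower in each, and the ratios of single members reached 0.71 in small and 0.61 in large intestine. Among spots poor in muscle transcripts, medians of this list were 1.59 and -0.13 in small intestine, with 2 genes higher and none lower, and 0.83 and 0.75 in large intestine, with 4 higher and 1 lower. Of all genes in that comparison, 12.4% were higher and 0.846% lower in small intestine, and 6.18% and 3.48% in large intestine. The lowest ratios of all genes were named by the size rule. Gal, encoding galanin of enteric neurons, had 18.8 and 14.5 CPM against 86.5 and 89.9 in small intestine, and 1 and 3 UMIs in the chosen spots against 155 and 186 in the others of large intestine. Cfd, an adipocyte gene, had 16.9 and 6.03 CPM against 67.4 and 33.6 in small intestine. The rule also named the muscle gene Tnnt2, the mesothelial genes Msln and Upk3b, the neuropeptide genes Cartpt and Penk, and Galr2, Car14 and Ptn in small intestine. Cartpt went opposite ways in the large intestinal sections (1.82 and -2.27), with 25 of 37 UMIs of the chosen spots of section 1 in 1 spot. In large intestine it named Ifit1bl2, Gdf10, Hand2os1, Bglap, Clca4a, Pcp4, Grp, Dlk1 and Angptl7 besides Gal. Penk had ratios of -1.63 and -3.24 in small intestine and -2.16 and -1.80 in large intestine, and its mean ratios were 0.75 and 0.94 among spots poor in muscle transcripts.

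Some mature epithelial genes were lower too, though most of those listed were not called. In small intestine, where 2.12% of all genes were lower, so were 3 of 11 enterocyte genes, the lipid transport genes Apoa4 (51.1 and 57.3 CPM against 124 and 186), Apob (-0.84 and -0.75) and Apoa1 (-0.63 and -0.56). Of 8 villus tip genes 2 were lower, Ada and Slc28a2, with 94.7 and 121 CPM against 197 and 321, and 61.9 and 63.3 CPM against 133 and 202. In large intestine, where 2.46% of all genes were lower, so were 4 of 10 colonocyte genes, among them the water channel gene Aqp8 (486 and 475 CPM against 969 and 1037) and Car4 (473 and 541 CPM against 1053 and 1143). Clca4a, one of 4 of 8 colon surface genes that were lower, had 45.6 and 43.5 CPM against 209 and 217. The goblet cell genes Muc2 (-0.74 and -0.54) and Retnlb (-1.17 and -0.77) were lower in large intestine, where the other 6 of the list were not called. No gene of the proliferation or stem cell lists was called in either tissue.

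Paneth cell genes were higher in small intestine, where 7 of 8 were called against 5.66% of all genes, with medians of 0.76 and 0.84. The defensin gene Defa24, which shares sequence with other alpha-defensins, had 32525 and 18471 CPM against 19726 and 10326, and Lyz1 had 5200 and 3142 CPM against 2825 and 1770. The Paneth ratios were not kept when only spots at or below the section's median share of smooth muscle UMIs were compared. This setting left 101 of 209, 162 of 257, 100 of 209 and 99 of 218 plasma cell-rich spots, so it changed both sides of the comparison. The Paneth medians in small intestine were then 0.16 and -0.04, with no gene called. In the same comparison the plasma cell list kept medians of 1.58 and 1.49 in small intestine and 1.50 and 1.41 in large intestine. Macrophage medians were 1.85, 2.29, 1.04 and 0.80, T and NK medians 1.17, 1.64, 0.51 and 0.71, and fibroblast medians 1.34, 1.23, 0.91 and 0.61. Lymphatic medians were 1.45 and 0.73 in small intestine and 0.71 and 0.19 in large intestine, where 2 of 5 genes were still called against 6.18% of all genes. In large intestine 8 of 12 proliferation genes and 4 of 5 stem cell genes were lower among these muscle-poor spots, where 3.48% of all genes were lower, with medians of -1.08 and -0.73 and of -0.77 and -0.88.

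Over the whole ranking, cut into 10 equal bins of spots, Mzb1 and the macrophage markers were highest in the top bin of every section. Mzb1 went from 2.12 CPM in the lowest bin to 33.6 in the next to last and 78.3 in the top bin of small intestine section 1, and from 1.77 to 19.3 and 80.6 in section 2. In large intestine it went from 13.7 to 139 and 220 CPM in section 1 and from 14.4 to 137 and 214 in section 2. The summed plasma cell list went from 1459.9 CPM in bin 9 to 1916 in bin 10 of small intestine section 1 and from 1380.4 to 1806 in section 2. Summed macrophage markers went from 94.0 to 742 and from 190 to 729 CPM in small intestine, and from 383 to 1724 and from 406 to 1650 CPM in large intestine. Summed Paneth genes of small intestine had 78799, 78194 and 78917 CPM in bins 8, 9 and 10 of section 1, and 40210, 47901 and 45951 CPM in those of section 2. Mzb1 was higher in bin 10 than in bin 9 of both sections, whereas the Paneth sum was close to that of bin 9 in section 1 and lower in section 2.

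**Figure D4:**
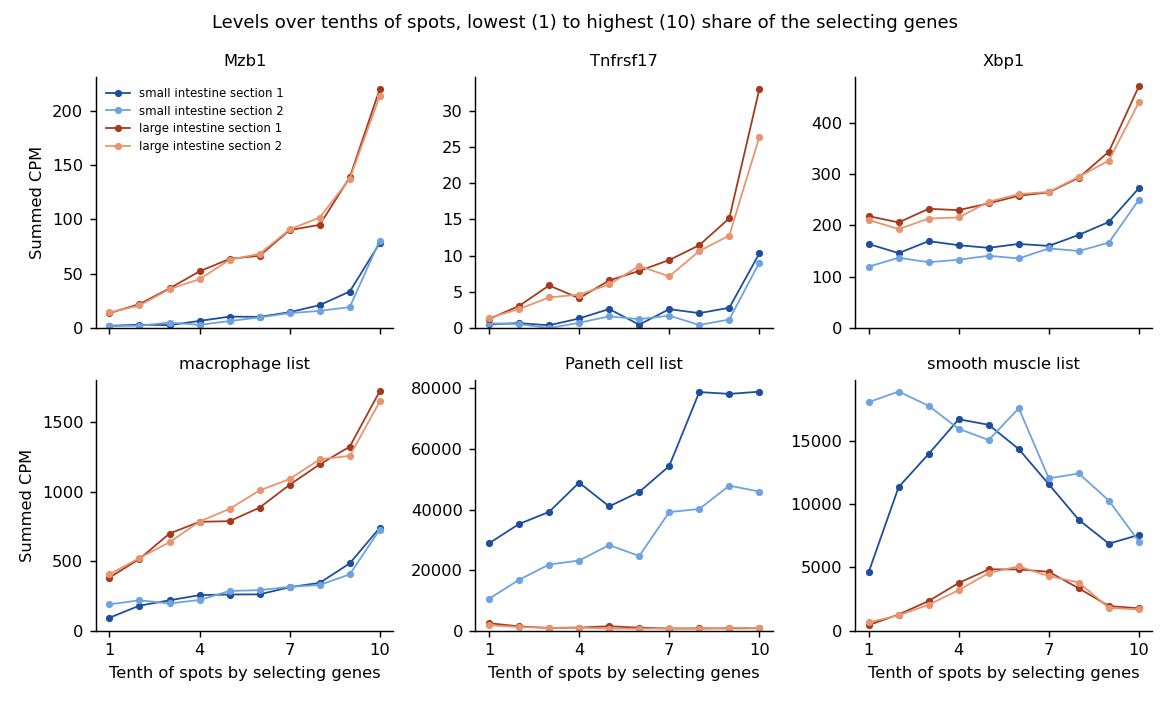
Summed CPM (vertical axes) of Mzb1, Tnfrsf17, Xbp1 and the macrophage, Paneth cell and smooth muscle lists over 10 bins of spots ranked by the share of the selecting genes (horizontal axes, lowest to highest), 1 line per section. Mzb1 reaches 78.3 to 220 CPM in the top bin and the macrophage sum climbs with it, while the Paneth sum of small intestine section 1 is level from bin 8 on and that of section 2 is highest in bin 9.

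The sorted single-cell libraries gave the levels of these genes in antibody-rich cells, with free RNA and doublets not removed. Cells with at least 10% of UMIs from the rule genes and at least 1 Mzb1 UMI numbered 94 of 2756 kept cells in small intestine and 321 of 6188 in large intestine. Few cells lay near the cut, with 5 and 31 between 5% and 20%. The median share of rule-gene UMIs was 62.9% and 52.1% in these cells and 0.0794% and 0.0940% in the rest. Of these cells 91 and 315 had mostly IgA, 2 and 6 mostly IgG and 1 and 0 mostly IgM, and 7 (7.45%) and 23 (7.17%) had mostly lambda light chain. With 1 library per tissue there is no replicate check, and the libraries were enriched for other cell types.

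Plasma cell genes were at high levels in these cells. Of 24 listed genes with at least 100 UMIs in small intestine 23 were at least 0.5 log2 units higher than in the other cells, where 17.6% of 12121 genes were higher and 44.1% lower, and 22 of 23 in large intestine, where 14.8% of 13670 genes were higher and 46.6% lower. These counts include Mzb1, whose level the choice of cells fixed. The exception in both was Cd38, with 15.5 and 22.0 CPM against 59.8 and 92.5, which was also not higher in spots. The ER list stood far higher in cells than in spots, with 30 and 31 of 35 genes higher and medians of 2.18 and 1.74. Hspa5 had 1500 and 2403 CPM in antibody-rich cells against 487 and 883 in the others, while its ratio in spots was at most 0.24. Epithelial and other cells of a spot hold ER transcripts too, and their part in the small ratios of spots was not tested.

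Most macrophage genes and Adamdec1, with high ratios in spots, were lower in antibody-rich cells than in the other cells of the sorted libraries. Of the macrophage list, 8 of 11 genes were lower in small intestine, where 44.1% of all genes were, and 8 of 12 in large intestine, where 46.6% were. Mrc1 and Cd163 went the other way in large intestine (0.54 and 0.85, on 32 and 5 UMIs), and no other of these genes was higher. C1qa had 29.4 and 33.7 CPM there against 65.2 and 77.0 in other cells, and the macrophage list had medians of -1.06 and -0.74. Adamdec1 had 1 and 12 UMIs in antibody-rich cells, or 0.863 and 3.34 CPM, against 61.3 and 37.8 CPM in other cells. C1qa had a UMI in 3.19% and 8.10% of antibody-rich cells against 8.49% and 11.1% of the others. Free RNA and doublets were not removed, so expression by antibody-rich cells is not read from these UMIs.

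Homing genes were compared in the same way in single cells. Ccr9 had a UMI in 64.9% of antibody-rich cells of small intestine and 5.30% of those of large intestine, against 3.01% and 0.443% of other cells, with 120 against 5.57 CPM in antibody-rich cells. Per 1000 rule-gene UMIs the tissues differed by 4.03 log2 units (95% counting interval 3.35 to 4.78). Ly6c2 differed by only -0.46 (-0.54 to -0.38) in cells, where 81.9% and 76.9% of antibody-rich cells had a UMI, against -3.08 in spots. Ccr9 thus gave similar differences between tissues in spots and cells, and Ly6c2 did not. Ccr10 had 665 and 730 CPM in antibody-rich cells against 0.236 and 0.932 in the others, and Mzb1, required for the choice of these cells, had 2827 and 3971 CPM.

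**Figure D5:**
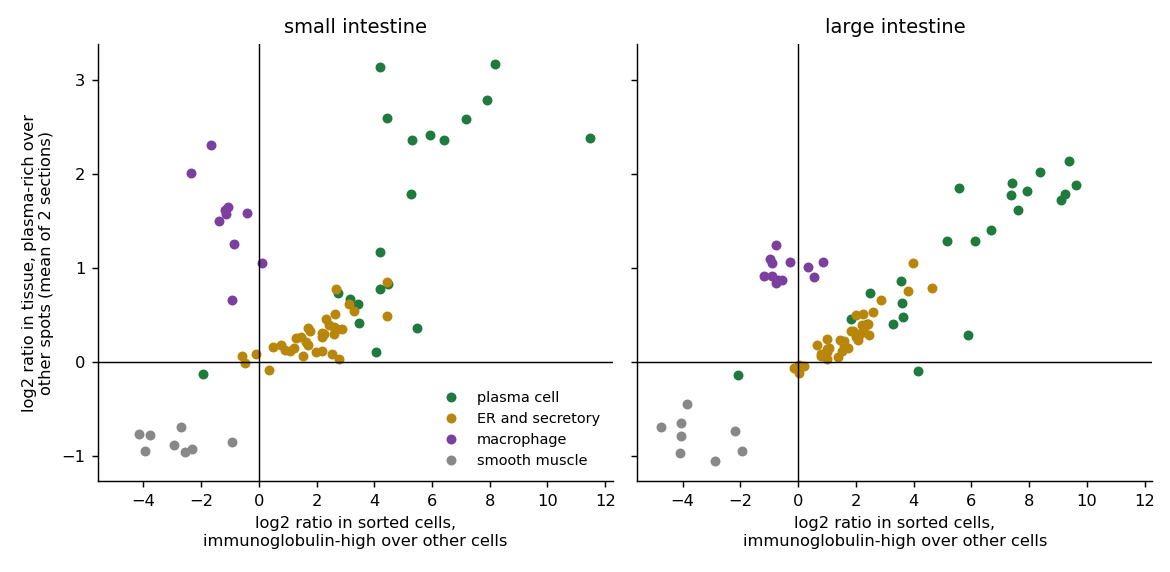
Mean log2 ratio of plasma cell-rich to other spots over both sections (vertical axis) against the log2 ratio of antibody-rich to other cells in the sorted library (horizontal axis) for genes of 4 lists, 1 point per gene, in each tissue. Most plasma cell genes lie high on both axes, macrophage genes lie above 0 in spots and mostly below 0 in cells, and ER genes are high in cells with small ratios in spots.

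Within plasma cell-rich spots the tissues differed in many genes, as they did in the other spots. Of 10429 genes that passed in all 4 sections, 17.6% were higher in small intestine and 15.8% in large intestine by at least 0.5 log2 units between the closest sections, against 18.1% and 21.6% in the other spots. Of 19 plasma cell genes, 1 was higher in small intestine and 5 in large intestine. Prdm1 had 22.0 and 27.7 CPM in small and 7.81 and 8.90 CPM in large intestine. The 5 were Mzb1, Xbp1, Derl3, Fkbp11 and Ccr10, and Fkbp11 had 25.8 and 19.7 CPM in small and 50.6 and 49.3 CPM in large intestine. In spots most of these differences depended on the scale. Per 1000 rule-gene UMIs, log2 differences of small over large intestine were -0.44 for Mzb1 (pairs of sections from -0.54 to -0.33), -0.12 for Ccr10 (-0.22 to -0.02), -0.14 for Fkbp11 (-0.31 to 0.04), 0.01 for Derl3 (-0.11 to 0.13) and 0.21 for Xbp1 (0.20 to 0.22). In spots Xbp1 thus turned toward small intestine on that scale, and Derl3 and Fkbp11 had pairs on both sides of 0, while Prdm1 had a difference of 2.58 (2.22 to 2.94). In the antibody-rich cells of the sorted libraries, however, Prdm1 differed between tissues by only 0.02 on that scale (95% counting interval -0.28 to 0.31). The 5 genes higher in large intestine all lay in that direction in these cells, with counting intervals below 0 and 1 library per tissue. Their differences there were -0.89 for Mzb1, -0.46 for Xbp1, -0.37 for Derl3, -0.69 for Fkbp11 and -0.54 for Ccr10. Of 8 T and NK cell genes 5 were higher in small intestine and none in large intestine. Of 10 macrophage genes 5 were higher in large intestine and none in small intestine. The amount of antibody RNA that the rule selected also differed between the tissues, so a difference in plasma cell number cannot be told apart from one in level.

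Genes outside the lists were named by a fixed size rule. In small intestine the largest ratios besides those of listed genes were those of Mmp10, St6gal1 and Apol7c. Mmp10, a matrix metalloproteinase, had 61.4 and 64.2 CPM against 10.1 and 9.82 in small intestine and ratios of -0.44 and 0.19 in large intestine, where it rested on 7 and 10 UMIs. St6gal1, a sialyltransferase of B lineage cells, had 38.0 and 37.3 CPM against 6.37 and 5.81 in small intestine and ratios of 0.76 and 0.86 in large intestine. Apol7c had ratios of 2.48, 2.68, 0.94 and 1.32. In the sorted cells, St6gal1 had 290 and 168 CPM in antibody-rich cells against 3.69 and 17.7. Mmp10 had 0 UMIs in them in each library, which does not exclude a low level, and Apol7c had 4.32 and 2.51 CPM against 18.1 and 8.53. St6gal1 thus had higher levels in the antibody-rich cells than in the other cells, and the other 2 did not.

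In large intestine the named genes with the largest ratios were mostly of the B lineage. Vpreb3, a B lineage chaperone of light chain assembly, had 16.6 and 16.6 CPM against 4.48 and 3.70, and Slamf6 and Lax1, lymphocyte signalling genes, had ratios of 1.89 and 1.87 and of 1.85 and 2.17. Cacna1s, a calcium channel subunit known from skeletal muscle, had 13.3 and 13.0 CPM against 3.45 and 3.89. These genes had high ratios in small intestine as well, with 2.24 and 1.69 for Lax1. Below the filter there were Vpreb3 (3.89 and 3.40), Slamf6 (2.95 and 2.69) and Cacna1s (3.04 and 2.67). In the sorted cells Cacna1s had 225 and 254 CPM in antibody-rich cells against 0.707 and 0.521 in others, and 84.0% and 75.4% of antibody-rich cells had a UMI.

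The ratio itself differed most between tissues for a handful of genes. Larger in small intestine were St6gal1, Nrg1 (2.22 and 2.0 against 0.34 and -0.33), Col6a4 (1.93 and 2.35 against 0.42 and 0.47), Ido1 (-0.19 and -0.11 against -1.70 and -1.69) and Ifit1bl2. Nrg1, a growth factor for epithelium, had 15.5 and 12.1 CPM in the plasma cell-rich spots of small intestine against 3.32 and 3.02 in the others, and no UMI in antibody-rich cells. Of all genes 2.52% had a ratio larger in small intestine by this rule and 1.04% one larger in large intestine. Larger in large intestine were Bend5, Osr1, Rbm24, Casq2 and Rom1, of which Casq2, a calcium store protein of muscle, had -1.31 and -1.62 in small intestine and 0.05 and 0.42 in large intestine.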

How the data were processed

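UMI counts per gene and barcode were analysed as the authors deposited them, without normalization. The file headers name Space Ranger 1.2.1 for the Visium sections, and the submitters' processing notes name Cell Ranger 6.0.1 and mm10 for the sorted libraries. Further alignment settings are not given in the sources used here, and spot positions were not used. Gene symbols are those of the files, and a table of mouse gene names held 32158 of the 32285 gene IDs. The spots, gene lists and comparisons were chosen with earlier results of these data known.

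UMIs were summed over the spots of a group in each section and scaled to CPM without Igh, Igk and Igl genes. Ratios of plasma cell-rich to other spots carry exact 95% ratio-of-Poisson intervals, and shares carry Clopper-Pearson intervals. A floor of 3 counts stood in for lower counts. Genes needed at least 100 UMIs in each section of a tissue. Besides all listed genes, the text could name, per tissue, 10 genes at each end of the ranking by ratio (by the section nearer to 0) and the 5 in each direction whose ratio differed most between tissues, leaving out immunoglobulin, mitochondrial, ribosomal protein, sex and unnamed genes. Cells of the sorted libraries were kept from 500 genes upward if mitochondrial UMIs were 20% or less, and doublets were not removed. The libraries shared 2 barcodes among kept cells. Calculations used Python 3.11.15, numpy 2.4.6, pandas 2.3.3 and scipy 1.17.1 and were tested on simulated counts.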

Additional observations from a re-analysis of the deposited data

Results flagged for a closer look

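Ang4, an antimicrobial ribonuclease gene of Paneth cells that is also expressed in large intestinal secretory cells, had ratios of opposite sign in the tissues. It was called higher or lower in neither. It had 4076 and 2721 CPM in the plasma cell-rich spots of small intestine against 3045 and 1960 in the other spots, with log2 ratios of 0.42 and 0.47. In large intestine it had 809 and 846 CPM against 1193 and 991, with ratios of -0.56 and -0.23. Both sections of each tissue lay on their own side of 0, and the mean ratios differed by 0.842. The difference was not tested, since the sections are technical duplicates. Among spots poor in muscle transcripts the mean ratios were 0.0045 in small intestine and -0.27 in large intestine.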

How the results depend on the processing

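Each value below is the mean over both sections. As reported, the list medians in small and large intestine were 1.48 and 1.29 for plasma cell genes, 0.25 and 0.25 for ER genes and 0.32 and 0.12 for the IgA list, 1 and 2 other marker lists were lower, and lambda held 7.34% in large intestine. Taking the top 5% of spots gave plasma cell medians of 1.80 and 1.47, an IgA median of 0.24 in small intestine, an ER median of 0.28 and a lambda share of 6.45% in large intestine, and 2 lower lists in small intestine. Taking the top 20% gave an IgA median of 0.29 in small intestine, 2 and 4 lower lists, a plasma cell median of 1.22, an ER median of 0.17, a lambda share of 7.99% and an S100a9 ratio of 0.54 in large intestine. Requiring 2000 UMIs gave an IgA median of 0.28 in small intestine. Ranking after thinning gave 0.31 there, and an ER median of 0.26 and lambda share of 7.61% in large intestine. Ranking by Jchain alone gave 2 and 1 lower lists and, in large intestine, an ER median of 0.24, an IgA median of 0.17, a lambda share of 8.20% and an S100a9 ratio of 0.29, against a mean of -0.70 as reported.

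Keeping immunoglobulin genes in the scaling gave an ER median of 0.18 and an IgA median of 0.26 in small intestine, 1.18, 0.13 and -0.0005 for the plasma cell, ER and IgA lists in large intestine, 2 and 4 lower lists, and 477 instead of 292 lower genes in large intestine. Median-of-ratios scaling gave ER medians of 0.20 and 0.23, an IgA median of 0.27 and 2 lower lists in small intestine. The mean of each spot's CPM gave ER medians of 0.21 and 0.26 and IgA medians of 0.26 and 0.17. Matching the other spots for depth gave an IgA median of 0.31 in small intestine, an ER median of 0.26 in large intestine, and 2 and 4 lower lists.

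Comparing only spots poor in muscle transcripts moved most. ER medians were 0.18 and 0.20, IgA medians 0.25 and 0.21, the plasma cell median of large intestine 1.45, and 0 and 4 lists were lower. In small intestine 1330 genes were higher and 91 lower, against 609 and 228. Called ratios that turned there were those of Il33 (-0.32), Myh11 (0.0701), Des (0.0067), Snap25 (0.23), Defa17 (-0.0006), Mmp7 (-0.0924) and Penk (0.75) in small intestine, and of S100a9 (0.0298), Myh11 (0.36), Tagln (0.03), Des (0.13), Mylk (0.31), Smtn (0.18), Lyve1 (-0.49), Penk (0.94) and Ptn (0.16) in large intestine. The smooth muscle genes were used to choose these spots, and the cause of the other changes was not tested. The next counts are of listed and named gene ratios with a reported mean of at least 0.5 in either direction, whether or not called. Ratios with fewer than 3 UMIs in the higher group under a setting were left out. Of 236 such ratios among spots poor in muscle transcripts, 216 kept their sign and 178 stayed at 0.5 or beyond. In each other setting 259 or 260 of 260 kept their sign and 232 to 259 stayed at 0.5 or beyond.

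A minimum of 30 UMIs gave 1074 higher and 344 lower genes in small intestine, and a minimum of 1 UMI gave 1358 and 344 there and 1000 higher genes in large intestine. Calling from 1 section alone gave 907 to 1417 higher genes (the highest without section 2) and 615 to 718 lower genes (the highest without section 1) in small intestine, 866 to 1016 and 667 to 695 in large intestine, 2 to 3 and 4 to 5 lower lists, and 2648 to 2987 genes higher in small and 2447 to 2570 in large intestine between tissues, since 1 section then has to pass instead of both. No paired analysis was possible because no result comes from a test and section numbers of different tissues share nothing in the labels.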
